A study of Mus musculus with 30 samples.

Results

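RNA of day 4 embryoid bodies with loss of the p53 family was set against RNA of wild-type embryoid bodies 1 day younger, to see whether loss of p53, p63 and p73 leaves differentiation at an earlier stage or takes it to another fate. Embryoid bodies (EBs) are aggregates of embryonic stem (ES) cells that differentiate in suspension. The 4 libraries compared are among the 14 RNA libraries and 30 samples of the series, whose other 16 samples are not analysed here. The first group, p53 family loss, is 2 libraries of day 4 EBs. They come from a Trp53-/- line of C57BL/6J background with 2 hairpin constructs, p63shRNA and p73shRNA. For context, values are also given for 2 libraries of day 4 EBs from a Trp53+/+ line, labelled wild type and C57BL/6J. The group they are set against is 2 libraries of day 3 EBs from the wild-type line E14Tg2a.IV (129/Ola), called E14, of which days 0, 1, 2 and 4 were also read with 2 libraries each. The Trp53-/- and Trp53+/+ lines were kept in N2B27 with LIF and the 2 inhibitors PD0325901 and CHIR99021, and E14 cells in serum with LIF. Day, line, strain background, starting medium and genotype therefore all differ between p53 family loss and E14 day 3, and their parts cannot be told apart. Each genotype is given as 1 line. Nothing in the labels shows that replicates were grown separately, and the p-values below may then reflect technical spread alone.

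The tumour suppressor p53 is a transcription factor that is stabilised by DNA damage and other stress and switches on genes of cell cycle arrest and cell death. Its relatives p63 and p73 bind similar sites. In differentiating ES cells, Wnt and Nodal signals switch on genes of the primitive streak, the structure of the embryo through which epiblast cells pass to form mesoderm and endoderm. Epiblast cells that do not receive these signals can form neuroectoderm.

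Recovered reads came to 31580252 and 28895339 in the p53 family loss libraries and 30878512 and 20104644 in the E14 day 3 libraries. Levels are CPM, a gene's reads scaled by its library's own total, since the table of the genotypes and that of the E14 days were normalised separately, and no p-value is given across them. Several genes marked the lines themselves. Hprt, which E14Tg2a cells are known to lack, had 106 and 112 CPM in p53 family loss and 125 and 138 CPM in Trp53+/+ EBs, against at most 0.81 CPM in any E14 library. The Y-linked gene Eif2s3y had 32.7 and 18.1 CPM in p53 family loss, no read in either Trp53+/+ library and 136 and 111 CPM at E14 day 3. Ddx3y and Uty, also Y-linked, were lower in p53 family loss than at E14 day 3 and near 0 in Trp53+/+, while Kdm5d had 9.25 and 3.84 CPM in p53 family loss and 0.13 and 0.0995 CPM at E14 day 3. The 2 genotype lines thus differ in more than the p53 family genes, and the part of this in their differences was not tested. Rn45s, the precursor of ribosomal RNA, took 0.848% and 2.91% of reads in p53 family loss, 0.632% and 4.30% in Trp53+/+ and 0.169% to 0.529% in the E14 libraries.

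A gene was called higher than E14 day 3 where both p53 family loss libraries lay above both E14 day 3 libraries and the ratio of the group means, each plus 0.5 CPM, was over 2, and lower in the mirrored case. Among the 13549 genes with a mean of at least 1 CPM over the 14 libraries, 657 were called higher (4.85%) and 727 lower (5.37%). Counts in the lists below are to be read beside these shares, and those against Trp53+/+ beside the shares in the next paragraph. In any list, genes that reached this mean through p53 family loss alone had to be higher there. The median log2 ratio of all 13549 genes was -0.04. A stricter rule asked that both p53 family loss libraries lie outside all 10 E14 libraries, days 0 to 4, with the group mean over 2-fold from the nearest of them. By it, 111 genes were above the whole E14 course (0.819%) and 80 below (0.59%). When the 2 Trp53+/+ libraries had to be passed as well, 42 genes were above (0.31%) and 39 below (0.288%).

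Against Trp53+/+ EBs of the same day, where both groups stand in 1 table and can be tested, limma called 84 of 14840 genes higher in p53 family loss (0.566%) and 100 lower (0.674%). Deviations of same-numbered libraries correlated at 0.572 between the 2 genotype groups. With a term for the replicate number in the fit, limma called 1548 genes higher and 1425 lower. The labels do not say that a number marks a shared culture, and the adjusted p-values given here use no such term. The counts without it were not stable. They were 285 and 375 by DESeq2, 979 and 634 without Trp53+/+ replicate 1 and 519 and 594 without Trp53+/+ replicate 2. In E14 itself, limma called 366 of 15841 genes higher at day 4 than at day 3 (2.31%) and 98 lower (0.619%). The count of 366 was 42 without E14 day 4 replicate 2, 56 without E14 day 3 replicate 1, 103 without E14 day 4 replicate 1 and 209 without E14 day 3 replicate 2, and the count of 98 was 1, 2, 13 and 29 in the same cases.

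Over the 6159 genes that changed on any day of the E14 course, Spearman's correlation of p53 family loss replicate 1 was 0.944 and 0.952 with the E14 day 3 libraries and 0.944 and 0.948 with those of day 4. For replicate 2 it was 0.955 and 0.963 with day 3 and 0.943 and 0.942 with day 4. Replicate 2 was thus most like day 3, while replicate 1 was about as like day 4. With the E14 day 2 libraries the correlation of p53 family loss was 0.911 to 0.940. Trp53+/+ EBs had 0.947 to 0.966 with E14 day 3 and 0.961 to 0.972 with E14 day 4. These correlations run across genes, which are not independent replicates, and the points share each library.

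**Figure D1:**
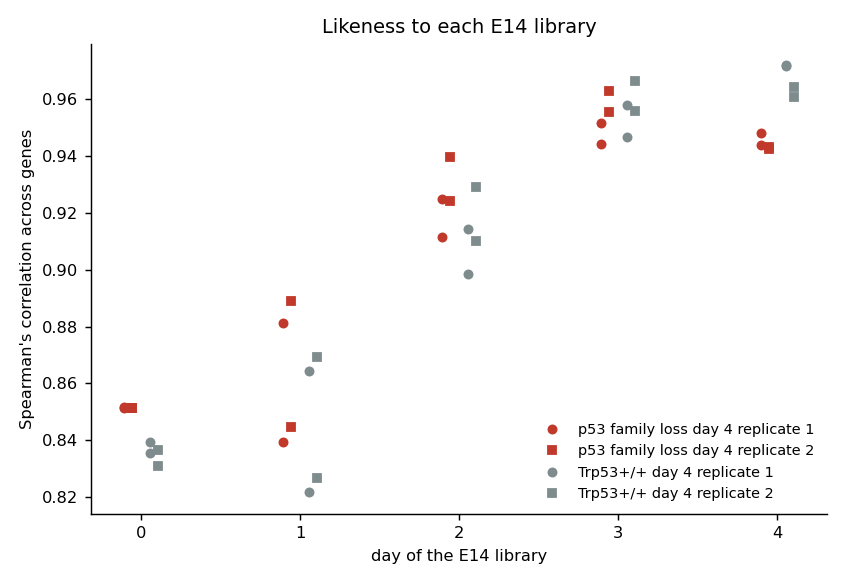
Spearman's correlation across 6159 genes (vertical axis) of each p53 family loss and Trp53+/+ day 4 library with each of the 10 E14 libraries, placed by day (horizontal axis; 2 points a day for each library). The p53 family loss points lie at 0.944 to 0.963 for day 3 and those of Trp53+/+ reach 0.972 at day 4.

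The targeted genes were read first. Trp53, which encodes p53, had 37.1 and 32.3 CPM in p53 family loss, against 346 and 465 CPM in Trp53+/+ and 247 and 274 CPM at E14 day 3. Both p53 family loss libraries lay below every E14 library, and against Trp53+/+ the gene fell (log2 fold change -3.57 ± 0.20, SE; limma, adjusted p = 0.0017). Trp73, the gene of p73, had 2.06 and 2.11 CPM in p53 family loss, 9.08 and 11.7 CPM in Trp53+/+ and 19.4 and 16.1 CPM at E14 day 3. It was below every E14 library as well and fell against Trp53+/+ (log2 fold change -2.32 ± 0.28, adjusted p = 0.022). Trp63 had 0.190 and 0 CPM in p53 family loss and 0.13 and 0.149 CPM at E14 day 3, so an effect of its hairpin could not be read at this depth. Mdm2, the ubiquitin ligase of p53 and also its target, had 75.6 and 63.6 CPM in p53 family loss, 126 and 93.6 CPM in Trp53+/+ and 122 and 119 CPM at E14 day 3. Mdm4, its relative that inhibits p53, had 59.8 and 42.7 CPM in p53 family loss and 78 and 110.2 CPM at E14 day 3. For both genes p53 family loss was lower without reaching 2-fold.

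Most targets of p53 were lower than at E14 day 3. Of 32 listed target genes, 31 passed the filter on low values, and of these 19 were called lower, 1 higher and 11 neither, with a median log2 ratio of -1.38. Ccng1, a cyclin G gene induced by p53, had 13 and 11.2 CPM in p53 family loss, 252 and 194 CPM in Trp53+/+ and 333 and 241 CPM at E14 day 3, a log2 ratio to day 3 of -4.51. Phlda3, a p53-induced inhibitor of Akt signalling, had 1.61 and 1.83 CPM in p53 family loss, 56 and 76.1 CPM in Trp53+/+ and 72.1 and 56.4 CPM at E14 day 3. Eda2r, a receptor of the TNF receptor family, had 1.01 and 1.11 CPM in p53 family loss and 43.2 and 46.8 CPM at E14 day 3. In all 3 the groups stood far apart. Cdkn1a, the cell cycle inhibitor p21, had 8.68 and 5.12 CPM in p53 family loss, 86.9 and 91.7 CPM in Trp53+/+ and 76.1 and 51.7 CPM at E14 day 3. Bax, which opens mitochondria in cell death, had 60.7 and 74.6 CPM in p53 family loss and 238 and 211 CPM at E14 day 3.

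Of the 31 targets, 12 were below every E14 library, so their levels matched no day of the E14 course: Cdkn1a, Ccng1, Bax, Phlda3, Zmat3, Plk2, Trp53inp1, Aen, Eda2r, Ddit4l, Dcxr and Rps27l. When the 2 Trp53+/+ libraries had to be passed as well, 8 were below, against 0.288% of all genes. Against Trp53+/+, 9 of 32 tested targets fell by limma and edgeR alike, and 0 rose by either tool (26 and 1 at an unadjusted p under 0.05). Bax, Plk2, Trp53inp1 and Rps27l were not among the 9 that limma called. The 9 were 18 without Trp53+/+ replicate 1 and 23 without Trp53+/+ replicate 2. Pmaip1 (Noxa), a p53-induced gene of cell death, went the other way, with 285 and 216 CPM in p53 family loss, 190.4 and 169 CPM in Trp53+/+ and 102 and 90.3 CPM at E14 day 3. Its level was above every E14 library.

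To show the element that p53 is known to bind, the promoters of the target list were searched for a p53 response element. RefSeq promoters (GRCm38.p6, 250 bases before to 50 after a start) were found for 25 of the 32 genes; this build differs from mm9, which the submitters used, and serves for sequence only. The element was taken as 2 stretches of 10 bases with at most 1 base between them, with C at position 4 and G at position 7 of each stretch and at most 1 mismatch elsewhere, a motif that reads alike on both strands. It was present for 4 genes, in 4 of 34 windows (11.8%), against 36 of all 32851 windows (0.11%). The 16 promoters of streak genes, the 26 of neuroectoderm genes and the 25 of mesoderm genes held 0. At a share of 0.11%, 0 matches would be found in most lists this short, so these counts cannot set the lists apart from all promoters. With up to 2 mismatches, 7 target windows matched (20.6%), 1 mesoderm window (4%) and 0 streak or neuroectoderm windows, against 0.682% of all windows. The matches are given 5′ to 3′ on the gene's strand with both stretches in capitals, at chr11:40755442-40755501 (minus strand) for Ccng1, chr17:29090908-29090967 (plus) for Cdkn1a, chr15:85859935-85859964 (plus) for Gtse1 and chr9:66946276-66946335 (plus) for Rps27l.
Ccng1: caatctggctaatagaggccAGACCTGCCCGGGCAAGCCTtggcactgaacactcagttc
Cdkn1a: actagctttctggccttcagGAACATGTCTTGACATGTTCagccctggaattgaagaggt
Gtse1: gggaaaccggGAGCAAGTTGGGGCTTGCCT
Rps27l: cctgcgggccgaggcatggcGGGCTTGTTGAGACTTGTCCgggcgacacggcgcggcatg
The element begins 195 bases before the annotated start of Ccng1, 51 before 1 of the 2 listed starts of Cdkn1a, 117 before 1 of the 2 of Rps27l, and 1 before 1 of the 2 of Gtse1, where it runs past the start. Rps27l, a ribosomal protein gene induced by p53, had 47.2 and 72.1 CPM in p53 family loss and 194 and 132 CPM at E14 day 3. Gtse1, a regulator of the cell cycle, had 112 and 99.2 CPM in p53 family loss and 211 and 168 CPM at E14 day 3 and did not reach 2-fold. Of the 19 targets called lower, 3 thus have a match in these windows. A match is a stretch of letters and was not tested for binding.

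**Figure D2:**
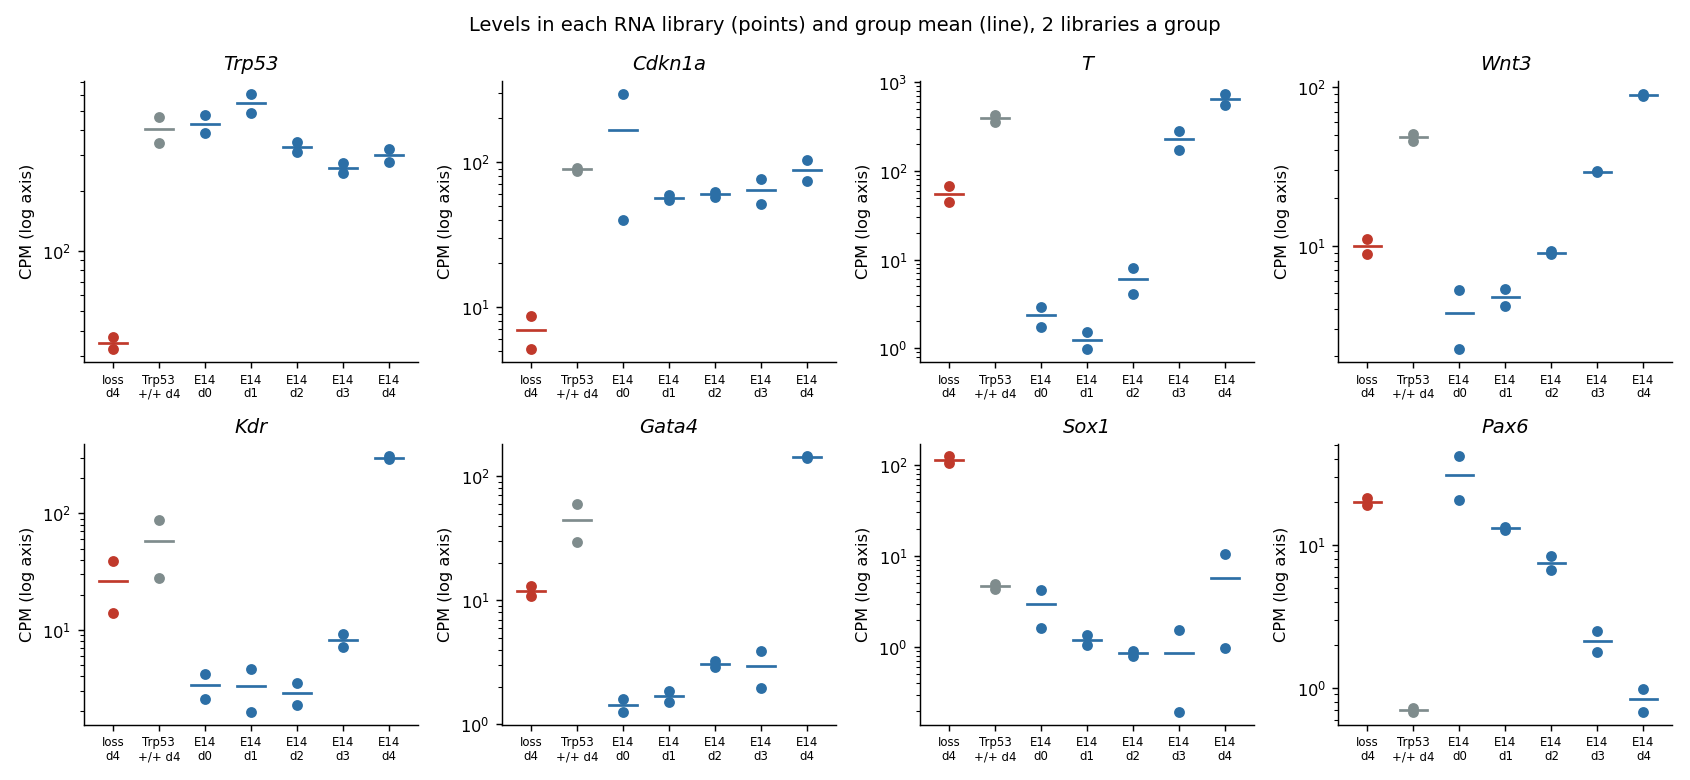
CPM on log axes of 8 genes in each library (points) with the mean of 2 libraries (line), for p53 family loss day 4, Trp53+/+ day 4 and E14 days 0 to 4. Trp53 and Cdkn1a are lowest in p53 family loss, T and Wnt3 lie below E14 day 3, Kdr and Gata4 lie between E14 day 3 and day 4, and Sox1 is above every other library.

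Some primitive streak genes were lower than at E14 day 3. All 22 streak genes passed the filter. Of them, 6 were called lower than day 3, 0 higher and 16 neither, with a median log2 ratio of -0.66. Among all genes 5.37% were called lower and 4.85% higher, so few or 0 higher calls would be found in a list this short. T (Brachyury), the T-box factor of the streak and nascent mesoderm, had 66.6 and 44.3 CPM in p53 family loss, against 427 and 359 CPM in Trp53+/+ and 171 and 284 CPM at E14 day 3. At E14 day 2 it had 4.05 and 7.93 CPM, so the level in p53 family loss lay between those of day 2 and day 3. Wnt3, the Wnt ligand needed to form the streak, had 11.1 and 8.82 CPM in p53 family loss and 29.1 and 29.4 CPM at E14 day 3. The E14 day 2 libraries had 8.84 and 9.25 CPM of Wnt3, close to p53 family loss. Wnt8a, another ligand of the streak, had 18.7 and 12.5 CPM in p53 family loss and 92.9 and 90.4 CPM at E14 day 3. Fst, an inhibitor of Activin, had 65.1 and 46.3 CPM in p53 family loss and 169.6 and 209.9 CPM at E14 day 3, with 43.2 and 56.7 CPM at day 2. Fst too was close to its day 2 level. Fgf8, a growth factor that streak cells need in order to migrate, had 69.6 and 58.7 CPM in p53 family loss and 152 and 152 CPM at E14 day 3, and the sixth gene called lower was Nodal, described with its pathway.

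Other streak genes did not reach 2-fold. Eomes, a T-box factor of the streak, had 133 and 139.6 CPM in p53 family loss and 226 and 298 CPM at E14 day 3. Mixl1, a homeobox gene of mesendoderm, had 35.8 and 33.7 CPM in p53 family loss and 45.7 and 67 CPM at E14 day 3. For both, each p53 family loss library was below both of day 3. Gsc, a homeobox gene of the anterior streak, had 12.9 and 21.8 CPM in p53 family loss and 17.3 and 22.1 CPM at E14 day 3. Mesp1, which marks early cardiac mesoderm, had 3.26 and 4.53 CPM in p53 family loss and 1.55 and 7.91 CPM at E14 day 3. For Gsc and Mesp1 the groups overlapped. In bulk RNA, fewer streak cells and less RNA of these genes per cell cannot be told apart.

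Most streak genes were lower than in Trp53+/+ EBs of the same age. By limma and edgeR alike, 13 of the 22 streak genes fell in p53 family loss against Trp53+/+ and 0 rose (20 and 0 at an unadjusted p under 0.05). Without Trp53+/+ replicate 1 the 13 were 20. T fell with a log2 fold change of -2.89 ± 0.20 (adjusted p = 0.0044) and Wnt3 with -2.32 ± 0.20 (adjusted p = 0.01). Mesp1, at 30.3 and 52.6 CPM in Trp53+/+, fell with -3.40 ± 0.35 (adjusted p = 0.016), and Mixl1, at 173 and 209 CPM there, with -2.49 ± 0.17 (adjusted p = 0.0042). Eomes fell with -2.11 ± 0.20 (adjusted p = 0.013). Wnt8a and Nodal, called lower than day 3, did not pass limma's test (adjusted p = 0.076 and 0.14), and Wnt8a, at 34.9 and 33.6 CPM, and Nodal were below both day 3 libraries in Trp53+/+ too. In E14, 10 streak genes were called higher at day 4 than at day 3.

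To place the p53 family loss libraries on the E14 course, each gene was given a position between 0, its mean at E14 day 2, and 1, its mean at E14 day 4, on the scale of log2(CPM + 0.5). The genes were those limma called between E14 days 2 and 4 with a log2 fold change beyond 2. They also had at least 10 CPM on the higher day. Neither day 3 nor p53 family loss was part of that contrast, but the day 3 libraries entered the fit's estimate of the spread. Over 298 rising genes, the median position was 0.577 and 0.430 in p53 family loss, 0.786 and 0.589 in Trp53+/+ and 0.192 and 0.366 at E14 day 3. Over 129 falling genes, it was 0.687 and 0.649 in p53 family loss, 0.828 and 0.835 in Trp53+/+ and 0.384 and 0.579 at E14 day 3. On both sets the p53 family loss libraries lay beyond both E14 day 3 libraries and short of both Trp53+/+ libraries. The nearest libraries of p53 family loss and day 3 were closer to each other than the 2 day 3 libraries were. Over rising genes the nearest libraries of p53 family loss and Trp53+/+ were at 0.577 and 0.589. These were closer to each other than the 2 libraries of either group were.

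Of the 298 rising genes, 113 were called higher than day 3 (37.9%), against 4.85% of all genes, and 16 lower (5.37%), the same share as among all genes. Of the 129 falling genes, 36 were called lower than day 3 (27.9%) and 5 higher (3.88%). The rising set held 15 streak genes, with a median position of 0.384 and 0.421 in p53 family loss and 0.473 and 0.714 at E14 day 3. For 7 of the 15 both p53 family loss libraries were below both day 3 libraries, and for 0 they were above both. The other 8 genes overlapped, and the nearest medians of the 2 groups were closer to each other than those of the day 3 libraries. Fst was at 0.170 and -0.042 in p53 family loss, against 0.769 and 0.903 at day 3. Wnt3 was at 0.085 and -0.010 in p53 family loss, against 0.507 and 0.511 at day 3. By contrast Gata4, an endoderm and heart factor, was at 0.360 and 0.314 in p53 family loss, against -0.099 and 0.055 at day 3. The 16 rising genes called lower than day 3 included T, Wnt3 and Fst, and also Etv2, a factor of blood and vessel precursors, and Msx1, a target of BMP signals.

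**Figure D3:**
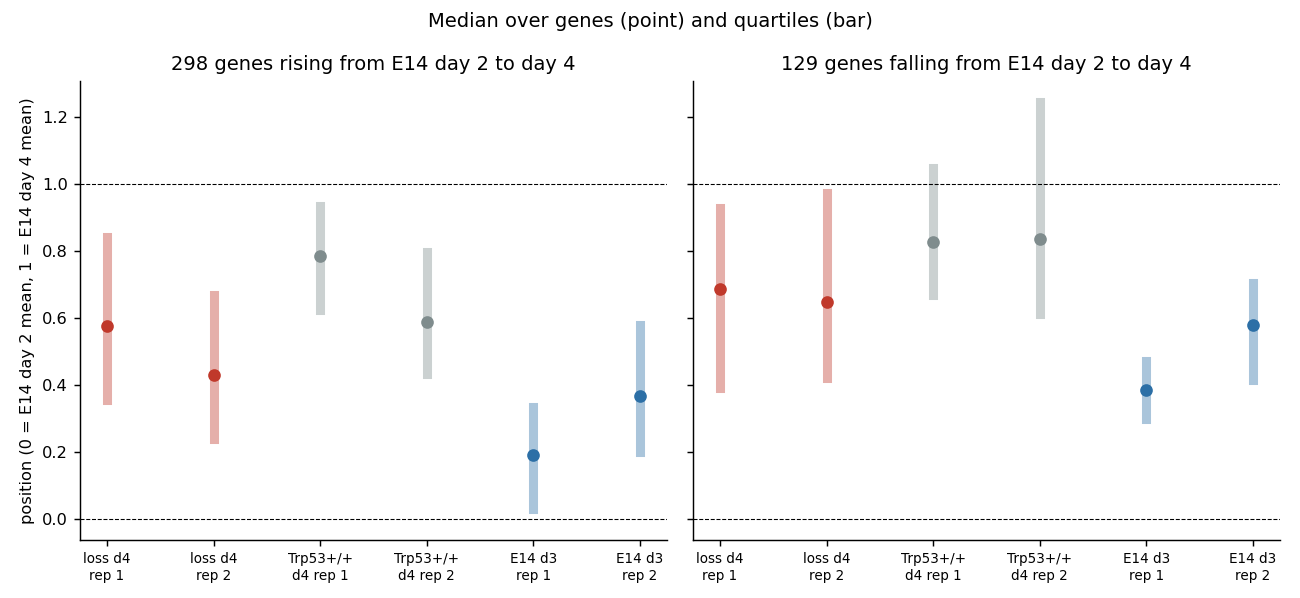
Median position (points) and quartiles (bars) of each library over 298 genes rising and 129 genes falling from E14 day 2 (position 0) to E14 day 4 (position 1). The p53 family loss libraries, at 0.577 and 0.430 for rising genes, lie short of Trp53+/+, at 0.786 and 0.589, and beyond E14 day 3, at 0.192 and 0.366. The nearest p53 family loss and Trp53+/+ libraries, at 0.577 and 0.589, nearly coincide.

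Some mesoderm genes were higher than at E14 day 3 and far below E14 day 4. Of 28 mesoderm genes, 26 passed the filter, of which 6 were called higher, 0 lower and 20 neither, with a median log2 ratio of 0.32. Without E14 day 3 replicate 2 the count of 6 was 10. Kdr (Flk1), the receptor of vessel and heart precursors, had 39 and 13.9 CPM in p53 family loss, 88.4 and 28 CPM in Trp53+/+ and 7.12 and 9.2 CPM at E14 day 3, with 293 and 308 CPM at E14 day 4. Its p53 family loss libraries were both above day 3 but differed more from each other than the day 3 libraries did. Hand1, a factor of lateral and extraembryonic mesoderm, had 11.1 and 3.7 CPM in p53 family loss and 0.745 and 0.995 CPM at E14 day 3. Hand2 and Foxf1a, called higher too, had at most 1.49 CPM in p53 family loss. Pdgfra, a receptor of paraxial and other mesoderm, had 14 and 10.2 CPM in p53 family loss and 4.79 and 7.66 CPM at E14 day 3, a log2 ratio of 0.91, just short of 2-fold. Aplnr, the apelin receptor of early mesoderm, had 23.7 and 17.4 CPM in p53 family loss, 141 and 80.3 CPM in Trp53+/+ and 4.27 and 21.9 CPM at E14 day 3, and p53 family loss overlapped day 3. Dll1, a Notch ligand, had 22.8 and 23.3 CPM in p53 family loss and 12.8 and 16 CPM at E14 day 3.

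Msgn1, a factor of presomitic mesoderm, had 0.0317 and 0.104 CPM in p53 family loss and 0.0648 and 0.0995 CPM at E14 day 3, with 27 and 29.9 CPM at E14 day 4. Tbx6, another, had 2.47 and 2.39 CPM in p53 family loss and 1.78 and 3.18 CPM at E14 day 3, with 26.8 and 21.7 CPM at E14 day 4. Mesp2, also one, had 0.665 and 1.83 CPM in p53 family loss and 1.72 and 2.64 CPM at E14 day 3, with 17.9 and 8.33 CPM at E14 day 4. The 3 genes were not called and lay far below E14 day 4. Against Trp53+/+, 4 of 26 tested mesoderm genes fell by limma and edgeR alike (Mesp1, Aplnr, Rspo3 and Snai1) and 0 rose (12 and 1 at an unadjusted p under 0.05). The 4 were 9 without p53 family loss replicate 1 or without Trp53+/+ replicate 1 and 18 without Trp53+/+ replicate 2. In E14, 20 of these genes were called higher at day 4 than at day 3.

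Of 22 genes of the anterior streak and definitive endoderm, 20 passed the filter, of which 5 were called higher than E14 day 3, 0 lower and 15 neither, with a median log2 ratio of 0.59. Gata4 had 13 and 10.9 CPM in p53 family loss, 59.6 and 29.8 CPM in Trp53+/+ and 1.98 and 3.88 CPM at E14 day 3. Gata6, its relative, had 14 and 18 CPM in p53 family loss, 81.2 and 41.7 CPM in Trp53+/+ and 3.72 and 11.5 CPM at E14 day 3. Sox17, an endoderm regulator, had 7.6 and 11.8 CPM in p53 family loss, 60.1 and 22.6 CPM in Trp53+/+ and 0.874 and 4.08 CPM at E14 day 3. For all 3 genes p53 family loss stood above day 3 and below Trp53+/+ with no overlap. Cxcr4, a chemokine receptor of definitive endoderm, had 13.4 and 11.1 CPM in p53 family loss and 1.3 and 3.48 CPM at E14 day 3. Krt19, an epithelial keratin, had 46.9 and 57 CPM in p53 family loss and 18.2 and 43.6 CPM at E14 day 3.

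Foxa2, a forkhead factor of endoderm and the node, was unlike them, with 31.1 and 26.9 CPM in p53 family loss, 96.3 and 77.2 CPM in Trp53+/+ and 38.3 and 34.9 CPM at E14 day 3. It fell against Trp53+/+ (log2 fold change -1.61 ± 0.17, adjusted p = 0.016). Foxa2, Gsc and Lhx1 were the 3 of 21 tested genes that fell. They were 8 without p53 family loss replicate 1, 9 without p53 family loss replicate 2, 11 without Trp53+/+ replicate 1 and 16 without Trp53+/+ replicate 2.

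Some neuroectoderm genes were higher than on any day of the E14 course. Of 30 genes, 20 passed the filter, of which 15 were called higher than E14 day 3, 0 lower and 5 neither, with a median log2 ratio of 2.39. Genes that passed through p53 family loss alone had to be higher, so these counts and the median are a description. With a mean of at least 5 CPM, 7 genes were called higher. Sox1, a factor of the early neural plate, had 124 and 104 CPM in p53 family loss, 4.32 and 4.92 CPM in Trp53+/+ and 0.194 and 1.54 CPM at E14 day 3. The E14 day 4 libraries had 0.966 and 10.6 CPM, the second of them the highest E14 value. Both p53 family loss libraries were far above all others, and against Trp53+/+ Sox1 rose (log2 fold change 4.57 ± 0.19, adjusted p = 0.001). Pax6, a factor of forebrain and eye, had 21.2 and 18.9 CPM in p53 family loss, 0.721 and 0.68 CPM in Trp53+/+ and 1.78 and 2.49 CPM at E14 day 3. E14 ES cells at day 0 had 20.5 and 41.5 CPM of Pax6, so its level was within the E14 range. Six3, of the anterior forebrain, had 8.52 and 15.9 CPM in p53 family loss and 0.194 and 0.298 CPM at E14 day 3. Sox21, a Sox factor of neural progenitors, had 30.6 and 16.6 CPM in p53 family loss and 0.486 and 0.796 CPM at E14 day 3. En1, of the midbrain and hindbrain, had 18.1 and 6.54 CPM in p53 family loss and 0.972 and 1.54 CPM at E14 day 3. The groups of these 3 genes did not overlap, although the p53 family loss libraries differed from each other.

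Of the 20 genes, 7 were above every E14 library, against 0.819% of all genes, among them Sox1, Six3, Rax, Lhx2, Fezf2 and Six6. Most of those named act in the anterior neural plate, forebrain or eye. En1, of the midbrain and hindbrain, and Gbx2, of ES cells and hindbrain, are on the list too and rose against Trp53+/+. A regional identity was not tested. When the 2 Trp53+/+ libraries had to be passed as well, 6 genes were above, against 0.31% of all genes. These counts too are a description, since genes that passed the filter through p53 family loss alone had to be higher there. Six6, a factor of eye and hypothalamus, had 7.88 and 6.75 CPM in p53 family loss, 0.0721 and 0.157 CPM in Trp53+/+ and at most 0.298 CPM in any E14 library. Lhx2, a forebrain and eye factor, had 9.63 and 8.58 CPM in p53 family loss, 0.576 and 0.89 CPM in Trp53+/+ and at most 1.64 CPM in any E14 library. Fezf2, of the forebrain, had 7.69 and 6.16 CPM in p53 family loss, 0.432 and 0.419 CPM in Trp53+/+ and at most 1.13 CPM in any E14 library. These levels are low beside that of Sox1. Against Trp53+/+, 9 of 27 tested neuroectoderm genes rose by limma and edgeR alike and 0 fell (21 and 0 at an unadjusted p under 0.05). The 9 that limma called were Sox1, Pax6, Pax3, Lhx2, Lhx5, En1, Fezf2, Gbx2 and Six6, without Six3, Sox21 and Rax. The 9 were 17 without Trp53+/+ replicate 1 and 19 without Trp53+/+ replicate 2. Pax6 rose with a log2 fold change of 4.72 ± 0.27 (adjusted p = 0.0017), Six6 with 5.58 ± 0.45 (adjusted p = 0.0082) and Lhx2 with 3.55 ± 0.35 (adjusted p = 0.014).

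The Neurog genes, which start neurogenesis, were near 0. Neurog1 had 0.412 and 0.311 CPM in p53 family loss and Neurog2 0.285 and 0.311 CPM, and neither passed the filter. Nes, an intermediate filament of neural progenitors, had 150.3 and 172 CPM in p53 family loss and 119 and 234 CPM at E14 day 3, with overlap. Tubb3, a tubulin of neurons that ES cells also express, had 55.3 and 69.1 CPM in p53 family loss and 13.4 and 10.9 CPM at E14 day 3, under the 142 CPM of the highest E14 library. Of 19 surface ectoderm and neural crest genes, 13 passed the filter, of which 3 were called higher, Gata3 and Sox9 among them, and 0 lower, with a median of 0.10. Sox9, which neural crest and other progenitors express, had 10.5 and 11.2 CPM in p53 family loss and 0.518 and 1.09 CPM at E14 day 3, while Sfn, Grhl2 and Cldn4, of surface epithelia, stayed within 2-fold of day 3.

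**Figure D4:**
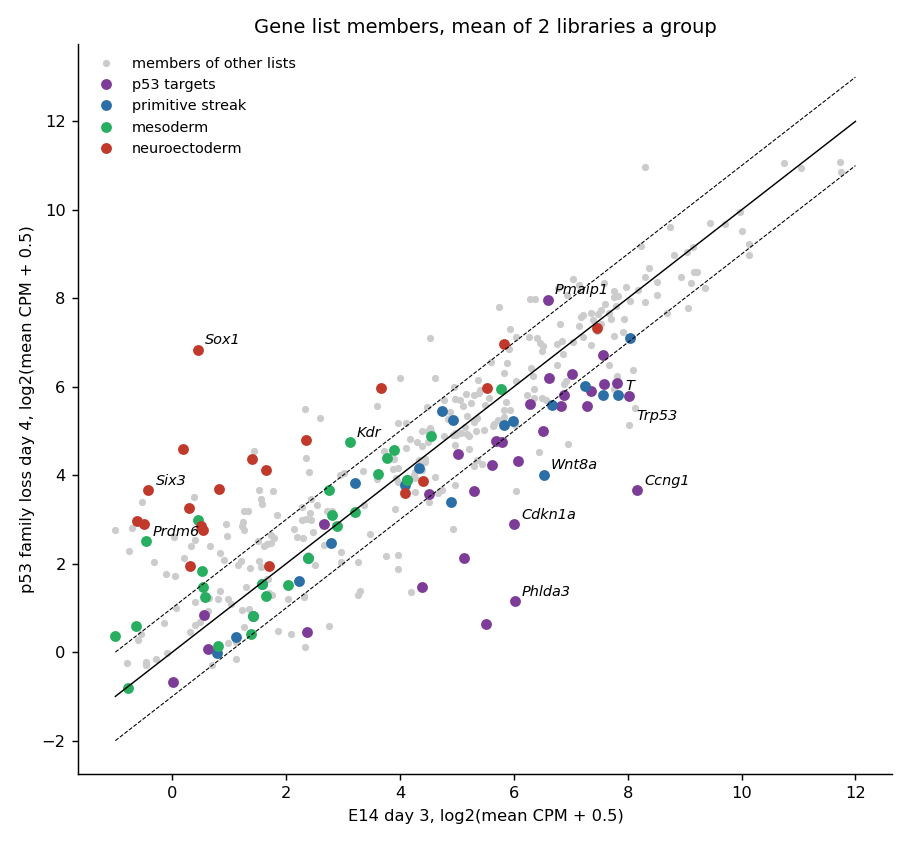
Mean level of list members in E14 day 3 (horizontal axis) and p53 family loss day 4 (vertical axis), both as log2(CPM + 0.5), with the line of equal levels and dashed lines at 2-fold. Neuroectoderm genes such as Sox1 and Six3 lie above the upper dashed line, most p53 targets and T and Wnt8a lie below the lower one, and most mesoderm genes lie between them.

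Naive pluripotency genes were near or somewhat above their E14 day 3 levels. Of 22 genes, 5 were called higher, 2 lower and 15 neither, with a median log2 ratio of 0.51. Zfp42 (Rex1), a marker of naive ES cells, had 29.8 and 22.7 CPM in p53 family loss and 25.7 and 18.1 CPM at E14 day 3, with overlap, and 643 and 652 CPM in E14 ES cells at day 0. Dppa3 (Stella), of ES cells and germ cells, had 13.2 and 7.79 CPM in p53 family loss, 11.9 and 9.42 CPM in Trp53+/+ and 3.14 and 1.74 CPM at E14 day 3. Spp1 (osteopontin) had 83.4 and 62 CPM in p53 family loss, 53.6 and 32 CPM in Trp53+/+ and 18 and 12.8 CPM at E14 day 3. Both were higher in the 2 genotype groups than at day 3. Gbx2, which marks both ES cells and hindbrain, had 28.6 and 25.8 CPM in p53 family loss and 3.72 and 5.52 CPM at E14 day 3, and it rose against Trp53+/+ (log2 fold change 2.55 ± 0.22, adjusted p = 0.01). Dppa5a, an RNA-binding protein of ES cells, was lower, with 49.6 and 41.1 CPM in p53 family loss, 66.1 and 56.5 CPM in Trp53+/+ and 342 and 216 CPM at E14 day 3.

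Of 13 general pluripotency genes, 0 were called higher, 2 lower and 11 neither, with a median of -0.12. Pou5f1 (Oct4) had 412 and 601 CPM in p53 family loss and 1254 and 996 CPM at E14 day 3, a log2 ratio of -1.15. Tdgf1 (Cripto), the co-receptor of Nodal, had 318 and 280.0 CPM in p53 family loss and 679 and 624 CPM at E14 day 3. These were the 2 genes called lower, and neither overlapped day 3. Nanog had 14.4 and 15.9 CPM in p53 family loss and 22 and 26.3 CPM at E14 day 3. Sox2, which neural cells keep, had 318 and 334 CPM in p53 family loss and 169.8 and 211 CPM at E14 day 3. Sall4, a zinc finger factor of ES cells, had 578 and 577 CPM in p53 family loss and 283 and 317 CPM at E14 day 3. Sox2 and Sall4 were above day 3 in both libraries, short of 2-fold.

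Genes of the formative and primed epiblast, the state that precedes both streak and neural plate, were close to E14 day 3. Of 18 genes, 3 were called higher, 0 lower and 15 neither, with a median log2 ratio of 0.17. Fgf5 had 153 and 155 CPM in p53 family loss and 161 and 190.2 CPM at E14 day 3, and Otx2, a factor of epiblast and forebrain, had 149.5 and 191 CPM in p53 family loss and 166 and 205 CPM at E14 day 3. Pou3f1 (Oct6), a factor of epiblast and neural progenitors, was higher with 246 and 290.5 CPM in p53 family loss and 122 and 121 CPM at E14 day 3. Sox4, a Sox factor of many progenitors, had 246 and 258 CPM in p53 family loss, 199.8 and 219 CPM in Trp53+/+ and 64.9 and 99.2 CPM at E14 day 3. Sall2 had 317 and 317 CPM in p53 family loss, 149 and 151 CPM in Trp53+/+ and 133 and 149 CPM at E14 day 3. Sox4 was above day 3 in Trp53+/+ too, whereas Sall2 was near its day 3 level there. Cdh2 (N-cadherin), a cadherin of mesoderm and neural cells, had 108 and 81.3 CPM in p53 family loss and 37.9 and 57.9 CPM at E14 day 3, short of 2-fold.

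**Figure D5:**
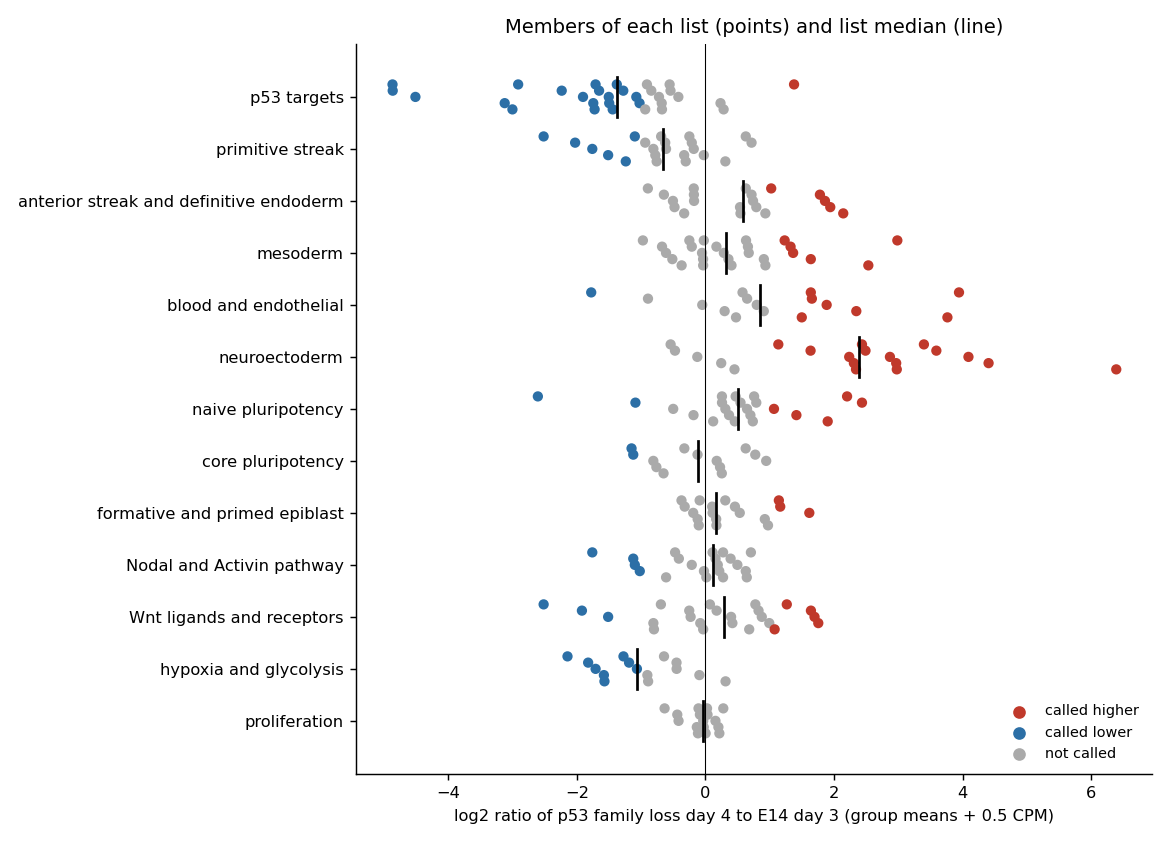
Log2 ratio of p53 family loss day 4 to E14 day 3 (horizontal axis, group means plus 0.5 CPM) for each member that passed the filter (points, coloured by call) of 13 lists, with the list median (line). The medians are 2.39 for neuroectoderm, 0.32 for mesoderm, -0.66 for primitive streak and -1.38 for p53 targets.

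Of 25 Wnt ligands and receptors, 24 passed the filter, of which 5 were called higher than E14 day 3 (Wnt4, Wnt5a, Wnt7b, Fzd2 and Fzd8) and 3 lower (Wnt3, Wnt8a and Wnt11), with a median log2 ratio of 0.29. Wnt11, a ligand of cell movement in the streak, had 2.18 and 2.01 CPM in p53 family loss and 10.7 and 8.01 CPM at E14 day 3. Wnt5a, a ligand of posterior mesoderm, had 9.91 and 3.63 CPM in p53 family loss and 1.23 and 2.44 CPM at E14 day 3. Of the receptor genes, Fzd1 had 10.3 and 8.82 CPM in p53 family loss, 40.5 and 31.3 CPM in Trp53+/+ and 8.81 and 10.8 CPM at E14 day 3. Fzd1 was thus at its day 3 level and fell against Trp53+/+ (log2 fold change -1.93 ± 0.20, adjusted p = 0.016). Fzd2 had 254 and 248 CPM in p53 family loss, 157 and 150.3 CPM in Trp53+/+ and 56.5 and 97.7 CPM at E14 day 3, and Fzd8 38.8 and 33.1 CPM in p53 family loss and 15.5 and 18.1 CPM at E14 day 3. Against Trp53+/+, 5 of 24 genes fell (Wnt3, Wnt3a, Wnt5b, Wnt11 and Fzd1; 4 by edgeR), which was 8 without Trp53+/+ replicate 1 and 10 without Trp53+/+ replicate 2. The number that rose was 0 (0 by edgeR and 3 at an unadjusted p under 0.05), and 5 and 1 without these libraries.

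Of 20 feedback genes and targets of Wnt signals, 19 passed, of which 4 were called higher and 1 lower, with a median of 0.13. Axin2, an inhibitor of the pathway that is also its target, had 60.1 and 46.8 CPM in p53 family loss and 82.6 and 97.4 CPM at E14 day 3, a log2 ratio of -0.75. Sp5, a direct Wnt target, had 38.3 and 35.9 CPM in p53 family loss, 181 and 223 CPM in Trp53+/+ and 46.6 and 79.6 CPM at E14 day 3. Both targets were below both day 3 libraries without reaching 2-fold. The secreted inhibitor Sfrp1 had 119.9 and 154 CPM in p53 family loss, 75.9 and 68.3 CPM in Trp53+/+ and 13.4 and 31.6 CPM at E14 day 3 and was above every E14 library. Frzb, another secreted inhibitor, had 57.7 and 36.7 CPM in p53 family loss, 70.2 and 70.8 CPM in Trp53+/+ and 5.6 and 17.6 CPM at E14 day 3. Rnf43, a ubiquitin ligase that removes Frizzled receptors, was lower, with 3.58 and 4.5 CPM in p53 family loss and 12.2 and 13.7 CPM at E14 day 3.

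Of 23 Nodal and Activin genes, 21 passed, of which 0 were called higher, 4 lower (Nodal, Tdgf1, Fst and Skil) and 17 neither, with a median of 0.11. Nodal, the ligand, had 48 and 46.4 CPM in p53 family loss, 69.5 and 72.5 CPM in Trp53+/+ and 115 and 88.7 CPM at E14 day 3. Lefty2, an inhibitor and target of Nodal signals, had 108 and 75.3 CPM in p53 family loss and 71.7 and 45.6 CPM at E14 day 3. Lefty2 was above day 3 in both libraries without reaching 2-fold, while Lefty1, at 76.7 and 45.4 CPM in p53 family loss and 125 and 38.3 CPM at E14 day 3, overlapped it. Skil (SnoN), a repressor of Smad proteins, had 194 and 213 CPM in p53 family loss and 399.8 and 426 CPM at E14 day 3. Of 22 BMP genes, 21 passed, of which 6 were called higher and 1 lower, with a median of 0.54. The ligand gene Bmp2 had 9.06 and 4.81 CPM in p53 family loss and 1.07 and 1.79 CPM at E14 day 3, with 29.1 and 25.1 CPM at E14 day 4. Msx2, a target, had 10.5 and 6.78 CPM in p53 family loss and 1.26 and 2.74 CPM at E14 day 3, with 67.5 and 137 CPM at E14 day 4. The targets Id3 and Id2 and the ligand Bmp7 were above day 3 in both libraries and short of 2-fold, with log2 ratios of 0.95, 0.62 and 0.82. Chrd (chordin), a BMP inhibitor of the node, had 12.7 and 10.9 CPM in p53 family loss and 16.6 and 20.9 CPM at E14 day 3.

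Among other cell types, 16 of 20 blood and endothelial genes passed the filter, of which 7 were called higher and 1 lower, with a median log2 ratio of 0.85. Cdh5 (VE-cadherin) had 14.4 and 5.74 CPM in p53 family loss, 1.59 and 2.2 CPM in Trp53+/+ and 0.13 and 0.249 CPM at E14 day 3, and at most 3.04 CPM in any E14 library. The embryonic globin gene Hbb-bh1 had 7.79 and 4.78 CPM in p53 family loss and no read in either E14 day 3 library. Both were above every E14 library. Etv2, in contrast, had 3.89 and 4.22 CPM in p53 family loss and 17.6 and 12.7 CPM at E14 day 3, and Flt1, a receptor of vessel cells, 37.6 and 31.3 CPM in p53 family loss and 58.3 and 70.7 CPM at E14 day 3, short of 2-fold. Genes that passed the filter through p53 family loss alone had to be higher there, so these counts are a description. By limma, Hba-x and Sox18 were the 2 of 20 tested genes that rose against Trp53+/+, and 0 fell (9 and 2 at an unadjusted p under 0.05). Cdh5 and Hbb-bh1 were thus not among the genes that rose.

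Of 24 visceral and parietal endoderm genes, 18 passed, with 8 called higher and 0 lower and a median of 0.80. Afp, Ttr and Hnf4a, visceral endoderm markers on this list, had at most 1.27 CPM in p53 family loss. Whether such cells were present was not tested. The 8 include Gata4 and Gata6, shared with definitive endoderm, and the matrix genes Col4a2 and Sparc. Pth1r, a receptor of parietal endoderm, had 19.5 and 13.4 CPM in p53 family loss, 14.7 and 13.5 CPM in Trp53+/+ and 3.79 and 5.72 CPM at E14 day 3. Of 16 trophoblast genes, 14 passed, with 7 called higher and 0 lower and a median of 1.10. Elf5 and Tpbpa, trophoblast markers on this list, had at most 0.277 CPM in p53 family loss. The presence of trophoblast cells was not tested either. Krt8, an epithelial keratin, had 244 and 205 CPM in p53 family loss, 269 and 187 CPM in Trp53+/+ and 38.3 and 67.3 CPM at E14 day 3. Peg10, an imprinted gene, had 2519.7 and 1491 CPM in p53 family loss, 1020.2 and 355 CPM in Trp53+/+ and 267 and 361 CPM at E14 day 3.

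Of 14 fibroblast genes, which could mark feeder cells, 10 passed, with 7 called higher and 0 lower and a median of 1.57. Their summed level was 383 and 331 CPM in p53 family loss, 236 and 249 CPM in Trp53+/+ and 101 and 196 CPM at E14 day 3. Of the list, 3 genes were above every E14 library, while Lum and Fap, also on it, had at most 0.095 CPM in p53 family loss. Whether feeder cells were present was not tested. Acta2, a smooth muscle actin, had 39.8 and 37.1 CPM in p53 family loss, 10.1 and 12.4 CPM in Trp53+/+ and 3.89 and 7.26 CPM at E14 day 3. Col1a2, a collagen chain, had 53.9 and 34.9 CPM in p53 family loss and 3.59 and 5.47 CPM at E14 day 3. Acta2 and Col1a2, at 10.8 and 6.07 CPM in Trp53+/+, were the 2 of 12 tested genes that rose against Trp53+/+ (adjusted p = 0.021 and 0.03). The 2 were 4 without either Trp53+/+ library, and 0 genes fell (0 by edgeR and 0 at an unadjusted p under 0.05). The part of this list in the mesoderm and endothelial calls was not tested.

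Of 18 germ cell genes, 16 passed, with 2 called higher and 3 lower and a median of 0.01. Sycp3, of the meiotic chromosome axis, had 14.1 and 10 CPM in p53 family loss and 80.2 and 50.2 CPM at E14 day 3. The 17 germ cell genes tested against Trp53+/+ had a median log2 fold change of 1.29. Limma called 0 of them in either direction (8 higher and 1 lower at an unadjusted p under 0.05). Of 12 genes of the two-cell-like state, whose near-identical copies can share reads so that counts are uncertain, 8 passed, with 5 called lower and 0 higher and a median of -1.52. Zscan4d, its marker, had 4.02 and 2.39 CPM in p53 family loss, 0.288 and 0.0523 CPM in Trp53+/+ and 20.2 and 9.95 CPM at E14 day 3. The list leaned the other way against Trp53+/+, with a median log2 fold change of 2.81 over 7 tested genes. Limma called 0 of the 7 in either direction and edgeR 1 higher (6 higher and 0 lower by limma at an unadjusted p under 0.05). Of 29 Hox and Cdx genes, which pattern the trunk, 10 passed, with 3 called lower and 0 higher and a median of -0.70, and each had at most 3.29 CPM in p53 family loss. Of 18 adhesion and epithelial-mesenchymal transition genes, 17 passed, with 3 called higher (Zeb1, Zeb2 and Sparc) and 0 lower and a median of -0.03. Zeb1, a repressor of E-cadherin that neural cells also express, had 25.1 and 20.8 CPM in p53 family loss, 6.05 and 3.61 CPM in Trp53+/+ and 1.39 and 2.98 CPM at E14 day 3.

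Of 16 proliferation genes, 0 were called in either direction, and their median was -0.03. Among all genes 4.85% were called higher and 5.37% lower, so few calls would be found in a list this short. Of 16 immediate early and stress genes, 0 were called higher and 3 lower (Fos, Ddit3 and Ier3), with a median of 0.06. Hypoxia and glycolysis genes were lower in both genotype groups than at E14 day 3. Of 16, 15 passed, with 8 called lower and 0 higher and a median of -1.07. Their summed level was 6530 and 9069 CPM in p53 family loss, 6838 and 9861 CPM in Trp53+/+ and 10593 and 13279 CPM at E14 day 3. Adm, a target of the hypoxia-inducible factors, had 2.63 and 10.2 CPM in p53 family loss, 2.09 and 11.7 CPM in Trp53+/+ and 23.6 and 36.8 CPM at E14 day 3. Bnip3, another target, had 50.2 and 116 CPM in p53 family loss, 47.7 and 118 CPM in Trp53+/+ and 272 and 273 CPM at E14 day 3. The part of this state in other calls was not tested. Of 5 sex-linked genes, 1 was called higher (Kdm5d) and 3 lower.

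Over all genes, the 8 named genes with the highest ratio to E14 day 3 were Hprt, Sox1, Ftl1, Rpl29, H19, Olig1, Nnat and Olig2, all above every E14 library. Of these, Sox1 and H19 rose against Trp53+/+ while Olig1 fell, and the adjusted p of Hprt, Ftl1, Rpl29 and Nnat missed 0.05. Ftl1, a ferritin chain, and Rpl29, a ribosomal protein, have near-identical copies in the genome, so their counts are uncertain. Ftl1 had 1229 and 1475 CPM in p53 family loss, 1264 and 1276 CPM in Trp53+/+ and 20.5 and 28.8 CPM at E14 day 3. Rpl29 had 161 and 173 CPM in p53 family loss, 157 and 206 CPM in Trp53+/+ and 3.89 and 3.03 CPM at E14 day 3. Such genes stood apart from E14 in both genotype groups alike. Olig2, a factor of neural progenitors, had 12.9 and 12.2 CPM in p53 family loss, 34.7 and 20.7 CPM in Trp53+/+ and at most 0.0852 CPM in any E14 library.

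The 8 with the lowest ratio were Gbp1, Eda2r, Phlda3, Kcnj3, Ccng1, Grb10, Inpp5d and Zmynd10. Gbp1, an interferon-induced GTPase, had 0 and 0.0346 CPM in p53 family loss, 12.7 and 7.9 CPM in Trp53+/+ and 14.2 and 25.7 CPM at E14 day 3. Inpp5d (SHIP1), a lipid phosphatase, had 2.18 and 1.32 CPM in p53 family loss, 19.2 and 10.3 CPM in Trp53+/+ and 32 and 27.6 CPM at E14 day 3. Kcnj3, a potassium channel gene, had 0.538 and 1.49 CPM in p53 family loss, 12.6 and 8.37 CPM in Trp53+/+ and 29.7 and 51.4 CPM at E14 day 3. For these 3 genes p53 family loss was below both Trp53+/+ and day 3.

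Genes that left the E14 course and also passed the test against Trp53+/+ in the same direction numbered 21 above and 29 below. The 8 furthest above the E14 libraries among the 21 were Sox1, H19, Igfbp5, Gpr137b-ps, Galntl1, Ptn, Rnf165 and Hrk. Igfbp5, a binding protein of insulin-like growth factors, had 60 and 38.9 CPM in p53 family loss, 10.5 and 15.1 CPM in Trp53+/+ and 3.3 and 6.81 CPM at E14 day 3. Ptn (pleiotrophin), a growth factor of the nervous system, had 15.8 and 12.5 CPM in p53 family loss, 1.91 and 2.88 CPM in Trp53+/+ and 3.11 and 2.88 CPM at E14 day 3. Hrk, a gene of cell death, had 13.6 and 13.5 CPM in p53 family loss, 2.85 and 3.98 CPM in Trp53+/+ and 3.21 and 3.58 CPM at E14 day 3. In all 3 both p53 family loss libraries stood above the rest. Of the 8 named among the 29 below, Phlda3, Eda2r, Ccng1 and Cdkn1a are listed p53 targets and Trp53 is the deleted gene, and the others were Gbp1, Grb10 and Inpp5d. The call of Gpr137b-ps against Trp53+/+ was lost without either p53 family loss replicate, and that of Galntl1 without p53 family loss replicate 2.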

How the data were processed

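RNA was measured by sequencing in 14 libraries of mouse ES cells and EBs, in 7 groups of 2. Per the submitters' processing notes, the tools were FastQC 0.11.3, Bowtie2, SAMtools 0.1.19, HTSeq 0.5.4 and DESeq2 with the build mm9. In the 2 deposited tables, values for 23284 gene symbols are a signal: reads scaled by a constant of each library. Tested on the files, 100% of values were whole multiples of a library's step within 1e-06. Dividing by the step gave 19104692 to 39835808 reads per library, from which CPM were computed. PCR copies are not independent molecules.

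No test was made across the tables. Within each table limma 3.58.1 (R 4.3.3, intensity trend) was fitted on log2 of the deposited signal plus 1 for genes kept by edgeR's filterByExpr, with Benjamini-Hochberg adjusted p under 0.05, on 2 residual and 4.335 prior degrees of freedom for the genotypes and 5 and 4.981 for the E14 days. All adjusted p-values come from these fits. The alternatives were edgeR 4.0.16 and DESeq2 1.42.0 on the recovered reads, other scalings, pseudocounts, filters and folds, and leaving out libraries. Calls across the tables used the log2(CPM + 0.5) scale, which understates changes of low genes.

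The members, the 26 gene lists and the rules were chosen with earlier results of these data known. Named genes are list members, with values first for up to 4 per list with the largest log2 ratio to E14 day 3 and at least 10 CPM in the higher group, and 8 per direction over all genes, without Gm, Rik, LOC and clone symbols. Other members, and the promoter search, were chosen after values were seen. A few list members are not reported by name here.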

Additional observations from a re-analysis of the deposited data

How the results depend on the processing

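The 14 results were recomputed under 162 alternatives, of which 127 left the result about the same and 35 moved it. Most of the 14 are counts of genes in 1 direction, which could not reverse. The balance of calls against E14 day 3 did turn, to 694 higher and 675 lower with TMM. Of list counts against Trp53+/+, hypoxia genes had 0 rises and 6 falls without Trp53+/+ replicate 1 and 4 and 0 without Trp53+/+ replicate 2, and visceral and parietal endoderm genes 6 and 2, and 1 and 8, in the same cases. With a mean of at least 5 CPM, 395 genes were called higher than E14 day 3, 474 lower and 49 were above every E14 library, and 3 mesoderm and 7 neuroectoderm genes were called higher. With a fold over 4, 135 genes were called higher, 97 lower, 25 were above and 18 below every E14 library, 2 streak genes and 7 p53 targets were lower, and 2 mesoderm genes were higher. With a pseudocount of 0.1 CPM, 123 genes were below every E14 library. With genes beyond a log2 fold change of 3, the median position over falling genes was 0.711, against 0.668, the mean of both libraries. DESeq2 called 285 genes higher and 375 lower than Trp53+/+, and 666 higher and 349 lower at E14 day 4 than at day 3. With 1 library left out, the count of mesoderm genes higher than E14 day 3 was 4 to 10, the median position over falling genes 0.617 to 0.687, genes higher than Trp53+/+ 72 to 979, lower 121 to 634, genes higher at E14 day 4 than at day 3 42 to 209 and lower 1 to 29. A lone library is then assumed to vary like the other groups. A replicate block called 1548 genes higher and 1425 lower than Trp53+/+, where deviations of same-numbered libraries correlated at 0.572. The labels do not say that a number marks a shared culture. Totals without Rn45s, chosen after seeing the data, and TMM or median-of-ratios scaling moved none of these counts by over 1.5 times, and the median log2 ratio of all genes lay between -0.04 and 0.00. The depth of the shallowest library of the 4, 20104644 reads, puts 3 reads at 0.149 CPM.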

Other observations

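Genes subject to genomic imprinting, of which only the copy from 1 parent is normally active, stood out among the genes named over all genes, so 30 well-known ones were listed after these values had been seen and get no test. Of these, 28 passed the filter, 11 were called higher than E14 day 3 and 1 lower, 5 were above every E14 library and 1 below. Grb10, an adaptor protein that restrains insulin signalling, had 16 and 16.1 CPM in p53 family loss, against 492 and 436 CPM in Trp53+/+ and 298 and 375 CPM at E14 day 3. H19, a non-coding RNA, had 313 and 257 CPM in p53 family loss, 101 and 56.4 CPM in Trp53+/+ and 6.25 and 13.2 CPM at E14 day 3.

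Mest and Nnat were high in both genotype groups. Mest had 232 and 182 CPM in p53 family loss, 243 and 135 CPM in Trp53+/+ and 10 and 8.61 CPM at E14 day 3. Nnat (neuronatin) had 188 and 258 CPM in p53 family loss, 73.4 and 92.3 CPM in Trp53+/+ and 6.64 and 9.7 CPM at E14 day 3. For Mest the 2 genotype groups overlapped, and for its difference from E14 day 3 the parts of day, line, strain background and medium cannot be told apart.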
